A study of Mus musculus with 6 samples.

Results

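The 10 genes described here are Nr4a1, Nr4a2, Nr4a3, Egr1, Egr2, Egr3, Irf4, Irf8, Myc and Cd69, which T cells switch on when the antigen receptor signals. They were taken by name from the deposited tables, and all 10 of 10 names were found among 21362 genes. RNA sequencing was done on 6 libraries of mouse CD4+ T cells, in a series about sorafenib, a kinase inhibitor used against cancer, and regulatory T cells. Beyond the cell type and a running number the labels say nothing of treatment, genotype, age, time or stimulus, so the libraries form no groups and no contrast between treated and untreated cells was made. Libraries are numbered 1 to 6 as in their titles, and each run of 6 values is given in that order. Whether they stem from separate mice or cultures is not stated.

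When the T cell receptor binds antigen, it signals through calcium, calcineurin and NFAT, through RAS and ERK, and through NF-kB. Genes that need no new protein synthesis respond first. Among them are the NR4A orphan nuclear receptors and the EGR zinc-finger factors, while IRF4 and MYC carry the signal into effector programmes and cell growth and CD69 keeps newly activated cells in the tissue. In regulatory T cells, NR4A factors help to maintain Foxp3, and IRF4 with its partner BATF is needed for the effector state.

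Total counts lay between 32435799 and 36316162 reads per library. Levels are counts-per-million (CPM) scaled for library composition with TMM, a method that centres the libraries on the bulk of their genes. A gene's range is the ratio of its highest to its lowest library, taken on the log2 scale with a prior count of 2. Cd4 lay between 412 and 482 CPM and Cd3e, a receptor signalling chain, between 200.3 and 218 CPM, while Cd8a of killer T cells stayed at or below 0.661 CPM and Cd8b1 between 8.15 and 9.57 CPM. Foxp3, the defining factor of regulatory T cells, lay between 7.37 and 13.4 CPM. In bulk RNA, fewer cells that express a gene and less of its RNA per cell cannot be told apart.

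All 10 genes were read in every library, with between 319 reads, for Nr4a2 in library 6, and 37351 reads, for Irf4 in library 6, and all 10 passed the filter, a mean of at least 1 CPM. Egr3 and Nr4a3 ranged 2-fold or more, which is 2 of 10 genes, where 10.5% of the 11516 genes tested did. With Egr2 and Nr4a2, 4 of 10 ranged 1.5-fold or more, where 27.6% of genes tested did. All 10 genes averaged at least 10 CPM. Among the 8371 genes at that level, a background added after the values were seen, the shares were lower, at 3.33% for 2-fold and 13.5% for 1.5-fold. The median range of the 10 genes was 1.33-fold, that of all genes tested 1.29-fold and that of genes of at least 10 CPM 1.22-fold. Most tested genes of the pathway lists described further on also averaged at least 10 CPM, so their counts are to be read against 3.33% and 13.5% too. Nr4a1, Egr1, Irf4, Irf8, Myc and Cd69 ranged less than 1.5-fold. The plot of range against level shows where they lie among all genes. The 10 genes did not move in 1 direction, since the library that was lowest for Egr3 and Nr4a3 was above the median for Nr4a2, Egr1, Irf8 and Irf4.

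**Figure D1:**
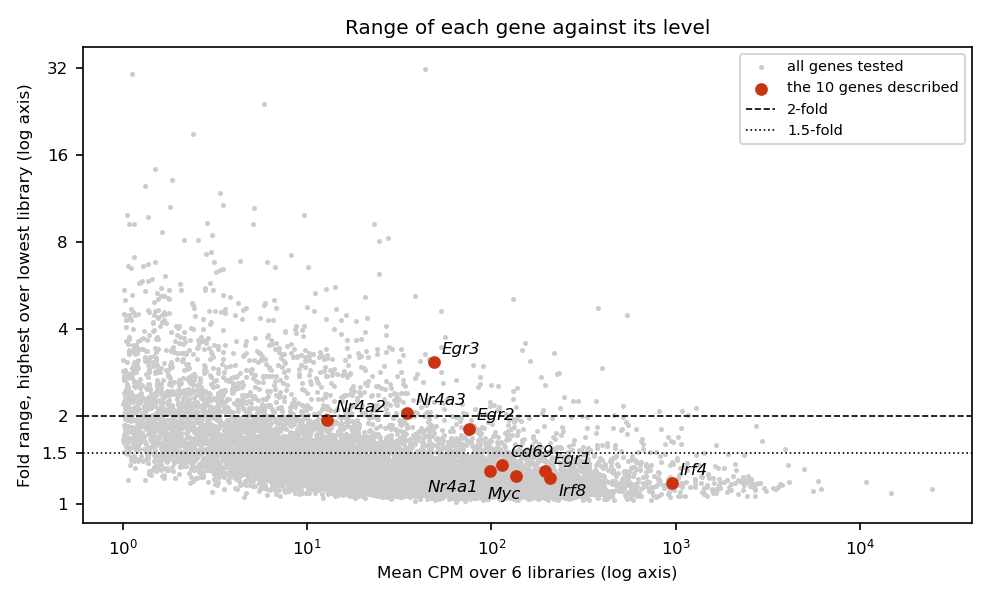
Fold range over the 6 libraries (y axis, log scale) against mean CPM (x axis, log scale) for the 11516 genes tested, in grey, and the 10 genes described, in red, with lines at 1.5-fold and 2-fold. Egr3 lies highest of the red points, at 3.08-fold, and Irf4 farthest to the right, at 1.17-fold.

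**Figure D2:**
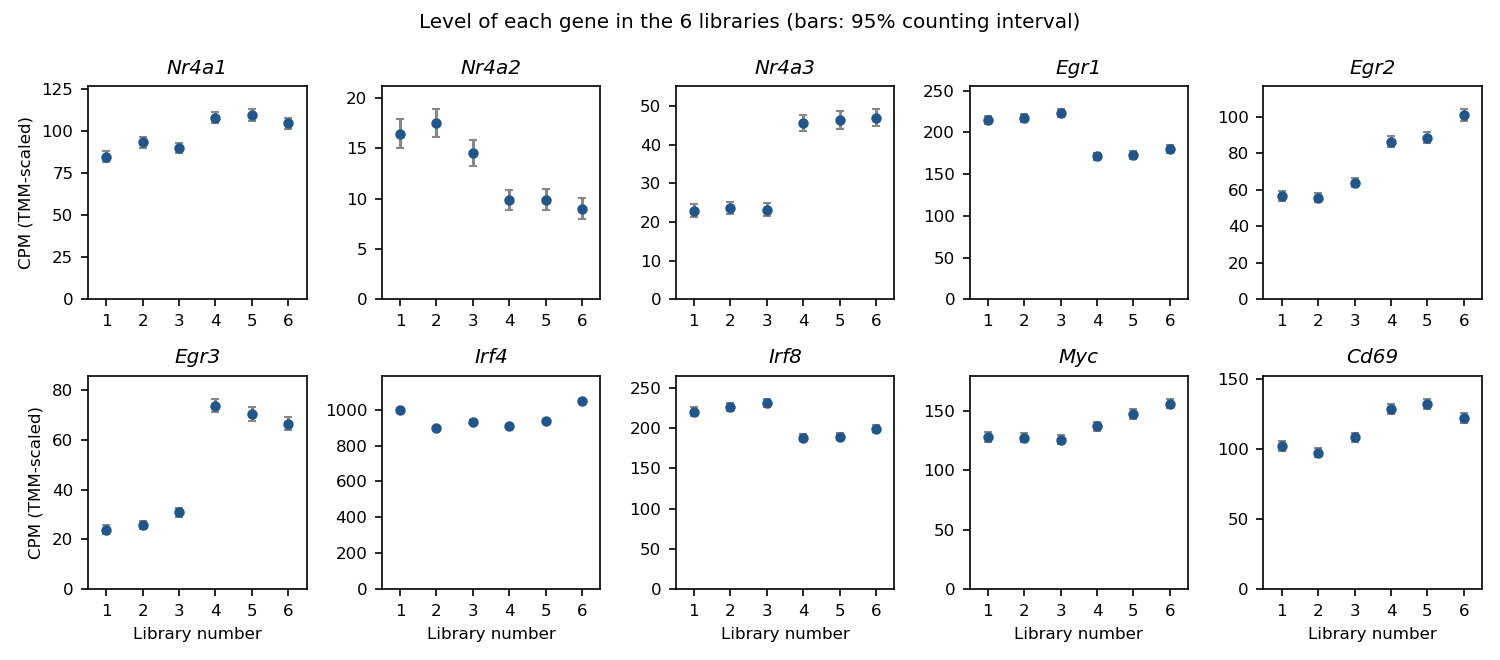
Level of each of the 10 genes in CPM (y axis, from 0) in libraries 1 to 6 (x axis), 1 point per library, with bars for the exact 95% counting interval. Egr3 is lowest in library 1, at 23.9 CPM, and highest in library 4, at 73.9 CPM, while Irf4 stays between 895 and 1050.2 CPM and Nr4a2 is highest in library 2.

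Per length, in the authors' deposited FPKM, Irf4 stood far above the other 9 genes. Its median was 198.7 FPKM, with a lowest library of 179 FPKM that lay above the highest library of Egr1, next in order, at 70.2 FPKM. Egr1, Irf8, Myc and Cd69 followed with medians of 63.7, 60.8, 55.2 and 47.6 FPKM. Neighbours among these 4 overlapped over the libraries, and Irf8 was below Myc in 3 of 6 libraries. Within each library, Egr1 was above Irf8 and Myc above Cd69. Nr4a1 came next at a median of 19.6 FPKM, and its highest library, at 22.8 FPKM, lay below the lowest of Cd69, at 38.5 FPKM. Egr3, Egr2, Nr4a3 and Nr4a2 closed the order with medians of 11.9, 8.36, 4.61 and 3.02 FPKM, each overlapping its neighbour. The order was thus not fixed at the low end, where Egr3 was below Egr2 in library 1 and Nr4a3 was below Nr4a2 in 3 libraries.

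**Figure D3:**
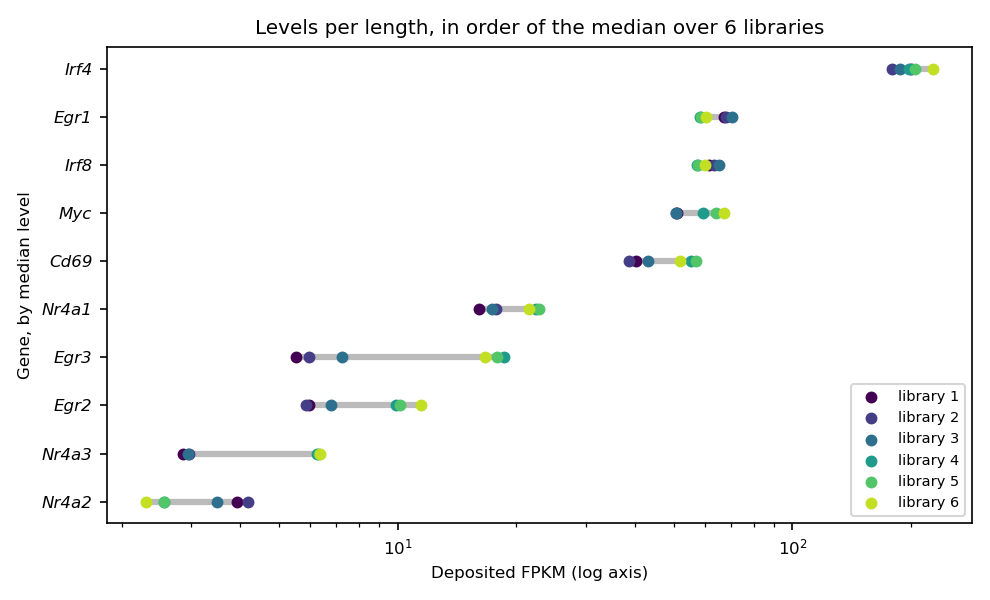
Deposited FPKM (x axis, log scale) of the 10 genes, sorted from top to bottom by the median over libraries, with 1 point per library and a grey line from the lowest to the highest. Irf4 lies apart on the right between 179 and 227 FPKM, and the long lines belong to Egr3, from 5.54 to 18.7 FPKM, and Nr4a3, from 2.87 to 6.37 FPKM.

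Nr4a1, which encodes NUR77 and is widely used to report receptor signalling, was the most abundant of the NR4A genes. It stood at 84.6, 93.2, 89.9, 108, 109.6 and 104.5 CPM. Library 1 was lowest and library 5 highest, a range of 1.296-fold (counting interval of the ratio 1.23 to 1.36). It was larger than the range of 51.02% of genes tested and of 65.8% of genes of at least 10 CPM. Nr4a3, which encodes NOR1, stood at 22.8, 23.6, 23.2, 45.6, 46.3 and 47.0 CPM. Its lowest values were in libraries 1, 2 and 3, and its range was 2.06-fold (1.88 to 2.25). Nr4a2, which encodes NURR1, had the opposite order at 16.4, 17.5, 14.5, 9.84, 9.83 and 8.97 CPM. It was highest in library 2 and lowest in library 6, a range of 1.94-fold (1.70 to 2.24).

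The summed NR4A level was 22.9, 24.9, 23.7, 31.3, 31.7 and 30.2 FPKM. FPKM is scaled by plain totals, which put libraries 1, 2 and 3 lower against libraries 4, 5 and 6 than TMM does. Shares and ratios within a library do not depend on this. Nr4a1 made up between 70.4% and 72.9% of the summed level in every library, so the make-up differed in Nr4a2 and Nr4a3. Nr4a2 made up 17.1%, 16.7%, 14.7%, 8.19%, 8.07% and 7.66%, and Nr4a3 12.5%, 11.9%, 12.4%, 20.0%, 20.0% and 21.1%. The level of Nr4a3 was 0.733, 0.711, 0.844, 2.44, 2.48 and 2.76 times that of Nr4a2. Per length, Nr4a2 was therefore the higher of the pair in libraries 1, 2 and 3 and Nr4a3 in libraries 4, 5 and 6. This order rests on the gene lengths implied by the FPKM, 7626 bases for Nr4a3 and 4012 bases for Nr4a2. In CPM, Nr4a3 was above Nr4a2 in every library. Nr4a2 overlaps the gene model LOC105244150, which was not analysed here.

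The NR4A promoters are shown because these genes differ in order over the libraries while their upstream sequences hold the same short word. RefSeq windows of assembly GRCm38.p6 matched 6 of the 10 genes, Nr4a1, Nr4a2, Nr4a3, Egr2, Irf4 and Irf8, with 11 start sites in all. The 250 bases before each start were searched on both strands for TGACG, the core of the cyclic AMP response element that CREB binds. It occurred 4 times in the window of each NR4A gene, while 17.8% of 32851 windows of all genes held it at least once and 0.137% held it 4 times or more. Several windows can belong to 1 gene, and G and C made up 74.4%, 80% and 63.6% of the Nr4a1, Nr4a2 and Nr4a3 windows against a median of 52.4% over all windows, whose part in the matches was not tested. The windows lie at chr15:101266596-101266845 on the plus strand, chr2:57124004-57124253 on the minus strand and chr4:48045055-48045304 on the plus strand of GRCm38.p6, and capitals mark TGACG or its reverse complement CGTCA.
Nr4a1: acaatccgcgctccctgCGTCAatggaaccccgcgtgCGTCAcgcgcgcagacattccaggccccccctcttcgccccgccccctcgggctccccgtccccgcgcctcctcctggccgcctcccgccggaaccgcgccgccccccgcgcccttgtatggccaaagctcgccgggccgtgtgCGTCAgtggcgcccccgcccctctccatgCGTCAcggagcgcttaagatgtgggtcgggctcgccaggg
Nr4a2: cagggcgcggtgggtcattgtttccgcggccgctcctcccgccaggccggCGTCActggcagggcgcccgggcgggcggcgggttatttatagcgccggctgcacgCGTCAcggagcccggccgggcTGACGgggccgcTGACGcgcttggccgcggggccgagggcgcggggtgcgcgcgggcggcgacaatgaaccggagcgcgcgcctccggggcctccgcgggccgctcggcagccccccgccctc
Nr4a3: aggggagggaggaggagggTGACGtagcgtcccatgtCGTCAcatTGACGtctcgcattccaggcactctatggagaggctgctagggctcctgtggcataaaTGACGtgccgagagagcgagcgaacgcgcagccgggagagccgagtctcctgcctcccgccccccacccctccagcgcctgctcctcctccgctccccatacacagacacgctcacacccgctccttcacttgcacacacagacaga

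Other words were searched in the same windows. The full element TGACGTCA occurred in 0 of the 11 windows and in 1.55% of all windows. GCGNGGGCG, the word bound by EGR factors, occurred in the windows of Nr4a1 and Nr4a2 and in 4.7% of all windows, and in both it shares bases with the GC box GGGCGG. The GC box itself lay in 7 of the 11 windows, across all 6 genes, and in 32.7% of all windows. AAAGGTCA, the word that an NR4A monomer binds, occurred in 0 of the 11 windows and in 1.34% of all windows. TGANTCA, the AP-1 word, occurred in 0 of the 11 and in 6.75% of all windows. TATAAA lay in the windows of Irf4, Irf8 and Nr4a2 and in 12.4% of all windows. The NFAT core GGAAAA, the NF-kB element, the MYC E-box CACGTG and the IRF repeat GAAANNGAA each lay in 1 window, of Egr2. In the same order, they lay in 20.4%, 5.93%, 6.02% and 7.13% of all windows. These matches describe letters in a fixed window and no measured binding.

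Egr1 was by far the most abundant of the EGR genes and also the steadiest. It stood at 214.6, 217.5, 223, 172, 173 and 179.9 CPM, highest in library 3 and lowest in library 4, a range of 1.301-fold (1.26 to 1.34). Egr2 stood at 56.7, 55.5, 63.9, 86.2, 88.4 and 100.9 CPM, lowest in library 2 and highest in library 6, a range of 1.82-fold (1.72 to 1.92). Egr3 stood at 23.9, 25.8, 30.9, 73.9, 70.6 and 66.6 CPM, and its range of 3.08-fold (2.85 to 3.35) was the largest of the 10 genes. It was larger than the range of 97.01% of genes tested and of 99.2% of genes of at least 10 CPM. EGR2 and EGR3 restrain T cell activation and are known from anergic cells, whereas EGR1 is a broad early response factor. Egr1 was thus high where Egr2 and Egr3 were low, in libraries 1, 2 and 3.

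Of the summed EGR level per length, Egr1 made up 85.3%, 85.1%, 83.4%, 67.1%, 67.7% and 68.3%. Egr3 made up 7.06%, 7.50%, 8.57%, 21.5%, 20.5% and 18.8%, and Egr2 between 7.35% in library 2 and 12.9% in library 6. The level of Egr2 was 1.08, 0.980, 0.942, 0.531, 0.570 and 0.690 times that of Egr3. Per length, the pair was near equal in libraries 1, 2 and 3, and Egr3 was the higher in libraries 4, 5 and 6. The lengths implied by the FPKM were 9083 bases for Egr2 and 4134 bases for Egr3. In CPM, Egr2 was above Egr3 in every library. Egr2 overlaps the gene model Gm32255, which averaged 3.87 CPM, and as the strand setting of the counting is not given in the sources used here, reads of either overlap cannot be told apart.

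A stretch of Egr2 sequence is shown because it holds 2 elements known from growth factor and receptor responses. The serum response or CArG element, bound by SRF, lay in 4 of the 5 Egr2 windows, 3 of them overlapping so that they hold the same copy, in no window of the other 5 genes and in 1.47% of all windows. The stretch at chr10:67537790-67537819, plus strand, GRCm38.p6, lies inside the third Egr2 window and ends at position -50, counted from the start site that follows that window, with 7 bases between the CArG element and the CGTCA word, both in capitals.
Egr2: cctcagtCCATATATGGgcagcgaCGTCAc

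Of the 8 EGR cofactors and SRF partners, each averaging 10 CPM or above, none reached a 1.5-fold range, and the median range was 1.16-fold, where genes of that level had 13.5% and 1.22-fold. Nab1, a co-repressor that binds EGR proteins, was both the most abundant and the most variable, at 126, 124, 138, 114, 108 and 108 CPM. Of 14 tested genes known as targets of EGR2 or EGR3, 6 ranged 1.5-fold or more, 4 of them at least 2-fold, with a median range of 1.35-fold. The most abundant was Tnfrsf9, the gene of the co-stimulatory receptor 4-1BB, at 1749, 1763, 1690, 824, 839 and 910 CPM. The most variable was Crtam, an adhesion receptor gene, at 4.86, 3.76, 4.07, 2.06, 2.93 and 2.19 CPM. Both were high in libraries 1, 2 and 3, where Egr2 and Egr3 were low.

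**Figure D4:**
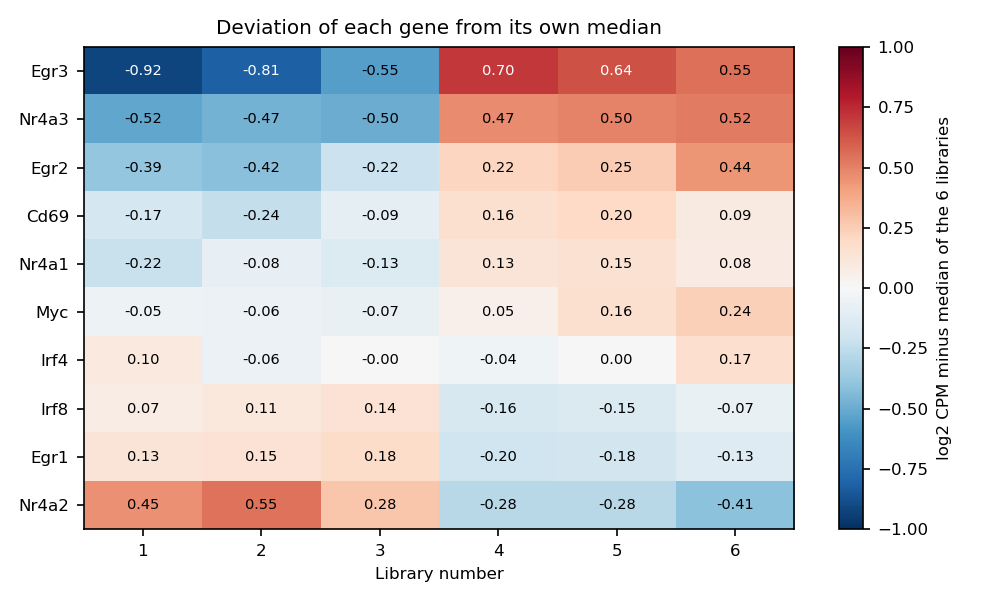
Deviation of each of the 10 genes (rows) in each library (columns) from that gene's median of the 6 libraries, in log2 units, with red above and blue below. Egr3 spans from -0.92 to 0.70 and Nr4a2 from 0.55 in library 2 to -0.41 in library 6, while Irf4 stays between -0.06 and 0.17.

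Irf4, which is induced in proportion to the strength of the receptor signal, was the most abundant of the 10 genes on both scales. It stood at 999, 895, 930, 906, 936 and 1050.2 CPM and ranked 131 among all genes by mean CPM. Library 2 was lowest and library 6 highest, a range of 1.17-fold (1.16 to 1.19), smaller than that of most genes. Of genes tested, 26.03% ranged less, and of genes of at least 10 CPM, 34.9% did. Irf8, best known from B cells and myeloid cells and also induced in activated T cells, stood at 220, 226, 232, 188, 189 and 199.6 CPM. It was highest in library 3 and lowest in library 4, a range of 1.23-fold (1.19 to 1.27). The level of Irf4 per length was between 2.84 times that of Irf8, in library 2, and 3.77 times, in library 6.

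Irf8 was set beside the markers of cells that carry it at high levels. The 8 B cell markers summed to between 12.5 CPM in library 6 and 21.6 CPM in library 1. Of these, Ebf1, an early B cell factor gene, took 15.4, 14.4, 12.0, 2.08, 2.85 and 2.33 CPM. Cd79a lay between 0.717 and 1.75 CPM, lowest in library 3, where Irf8 was highest, and highest in library 5. The 8 macrophage and monocyte markers summed to between 9.08 and 13.0 CPM, nearly all from Cd68, a lysosomal gene, at 8.68 to 12.1 CPM. Csf1r and Lyz2 had at most 3 and 4 reads in any library, and each had 0 reads in 1 library. The 6 dendritic cell markers in the table summed to between 4.27 and 7.33 CPM, led by Zbtb46 at 2.61 to 5.45 CPM, and Xcr1 and Siglech had 0 reads in 5 of 6 libraries. The summed level was at most 0.619 CPM for 5 NK cell markers, with Eomes highest. The 5 neutrophil markers, led by Cxcr2, summed to 6.57, 6.74, 6.31, 1.56, 1.84 and 1.63 CPM, high in libraries 1, 2 and 3, as the B cell sum and Irf8 were. All these sums lay far below the 188 CPM of Irf8 in its lowest library, and their part in its values was not tested.

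Of the other interferon regulatory factors, 7 were tested, of which 0 ranged 2-fold and 2 ranged 1.5-fold or more. Irf1, the most abundant, stayed between 181 and 191 CPM. Of 18 tested IRF4 partners and target genes, 10 ranged 1.5-fold or more, 4 of them at least 2-fold, with a median range of 1.59-fold. Junb, whose protein joins BATF and IRF4 on DNA, was the most abundant at 820.1, 794, 779, 510.4, 534 and 582 CPM. Irf4 itself did not follow Junb, being highest in library 6, where Junb was below its level in libraries 1, 2 and 3.

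Myc, which drives ribosome production and growth after activation, stood at 127.6, 126.9, 125.6, 136.7, 147 and 156 CPM. Library 3 was lowest and library 6 highest, a range of 1.24-fold (1.19 to 1.29). The paralogue Mycn was read mainly in libraries 1, 2 and 3, with 56, 89, 72, 5, 1 and 4 reads, or 1.80, 2.57, 2.07, 0.132, 0.0287 and 0.112 CPM. The ratio of its highest to its lowest library had a counting interval from 15.7 to 3574, since the lowest held 1 read. Mycl, named after its values were seen and below the filter, had 24, 34, 28, 8, 7 and 8 reads. Myc was thus above both paralogues by far in every library and was lowest where they were high.

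Of the 13 tested genes of the MYC network, 4 ranged 1.5-fold or more, 3 of them at least 2-fold, with a median range of 1.25-fold. Mxi1, a MAX partner that opposes MYC, was the most abundant at 476, 453, 457, 271, 283 and 276 CPM, and Mycn was the most variable. Of 35 tested MYC target genes, 0 ranged 2-fold and 10 ranged 1.5-fold or more, with a median range of 1.39-fold. Npm1, the nucleolar gene nucleophosmin and the most abundant, lay between 2924 and 3231 CPM and was lowest in library 6. Dkc1, a pseudouridine synthase gene of ribosome assembly and the most variable, stood at 30.2, 31.2, 34.7, 46.5, 49.9 and 51.5 CPM. The median deviation of the list was -0.20, -0.14, -0.12, 0.10, 0.14 and 0.18 log2 units. Summed over the 35 genes, the level moved little, with 11390.2 CPM in library 5 as the lowest value and 11735 CPM in library 3 as the highest. Npm1, Ldha and Ncl led this sum, with means of 3093, 2570 and 1582 CPM, so it says little of the other genes. Ldha was lowest in library 5 and highest in library 2, and Ncl lowest in library 1 and highest in library 4. Ldha and Ncl were named after their values were seen.

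Genes of dividing cells moved with several of the 10 genes. Of 18 proliferation genes, 15 ranged 2-fold or more, and the median deviation of the list was -0.53, -0.48, -0.61, 0.50, 0.51 and 0.79 log2 units. It was lowest in library 3 and highest in library 6, as Myc was, and negative in the libraries where Nr4a3, Egr2 and Egr3 were low. Top2a, the most abundant, lay between 128 and 358 CPM, and Ccnb2, the most variable, between 4.06 and 16.3 CPM. The part of this list in the values of the 10 genes was not tested.

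Cd69, a surface lectin of newly activated cells, stood at 101.8, 97.3, 108, 128, 132 and 122 CPM. Library 2 was lowest and library 5 highest, a range of 1.36-fold (1.296 to 1.42). Of 11 tested genes of tissue exit and retention, 7 ranged 1.5-fold or more, 2 of them at least 2-fold, with a median range of 1.54-fold. Ccr7, the lymph node homing receptor gene and the most abundant, stood at 391, 358, 347, 282, 286 and 301 CPM. Itgae, an integrin gene of cells that stay in epithelium and the most variable, stood at 4.18, 2.77, 3.15, 1.87, 2.21 and 2.76 CPM. Both had their highest value in library 1, where Cd69 was low.

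Genes of the signalling machinery upstream of the 10 genes ranged about as far as other genes of their level. Of 20 genes of the receptor complex and its first kinases, all of at least 10 CPM, 0 ranged 2-fold and 1 ranged 1.5-fold, with a median range of 1.21-fold, where genes of that level had 3.33%, 13.5% and 1.22-fold. That gene was Cd28, the main co-stimulatory receptor, at 848, 786, 783, 524, 510.2 and 507 CPM, and it was also the most abundant. Of 11 tested genes of the calcineurin and NFAT branch, 0 ranged 1.5-fold or more, with a median range of 1.23-fold. Nfat5, the most abundant, stood at 624, 558, 561, 496, 515 and 508 CPM, and Homer3, the most variable and a scaffold that competes with calcineurin for NFAT, at 7.92, 7.08, 7.57, 8.60, 9.17 and 9.59 CPM.

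Other early genes of the receptor response did not share 1 order. Of 29 tested, 11 ranged 1.5-fold or more, 3 of them at least 2-fold, and the median deviation of the list stayed between -0.08 in library 4 and 0.05 in library 2. The summed level of the list, in which abundant genes weigh most, was 9938, 9938, 9715, 6941, 7079 and 7515 CPM, high in libraries 1, 2 and 3. Il2ra, the most abundant, stood at 2301, 2201, 2178, 1556, 1613 and 1778 CPM, and Il2, the most variable, at 0.805, 1.39, 1.66, 3.72, 5.81 and 5.31 CPM. Il2 was thus low in libraries 1, 2 and 3, as Egr3 was, and Il2ra high. Of 16 genes induced by cell handling and heat, 9 ranged 1.5-fold or more, 2 of them at least 2-fold. The median deviation of the list was 0.27, 0.24, 0.21, -0.27, -0.27 and -0.21 log2 units. Fosb, its most variable gene, stood at 1.67, 1.503, 0.975, 0.606, 0.575 and 0.843 CPM, and Hspa8, its most abundant, between 2365 and 2518 CPM. The median of the list was thus high in libraries 1, 2 and 3, as Egr1 and Nr4a2 were, while Egr2, Egr3 and Nr4a3 were low there. The part of the list in the values of these genes was not tested. Fos and Ier2 of the list, named after their values were seen, went the other way. Fos was lowest in library 2, at 4.74 CPM, and highest in library 4, at 7.65 CPM. Ier2 was lowest in library 1, at 90.1 CPM, and highest in library 6, at 108.2 CPM.

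**Figure D5:**
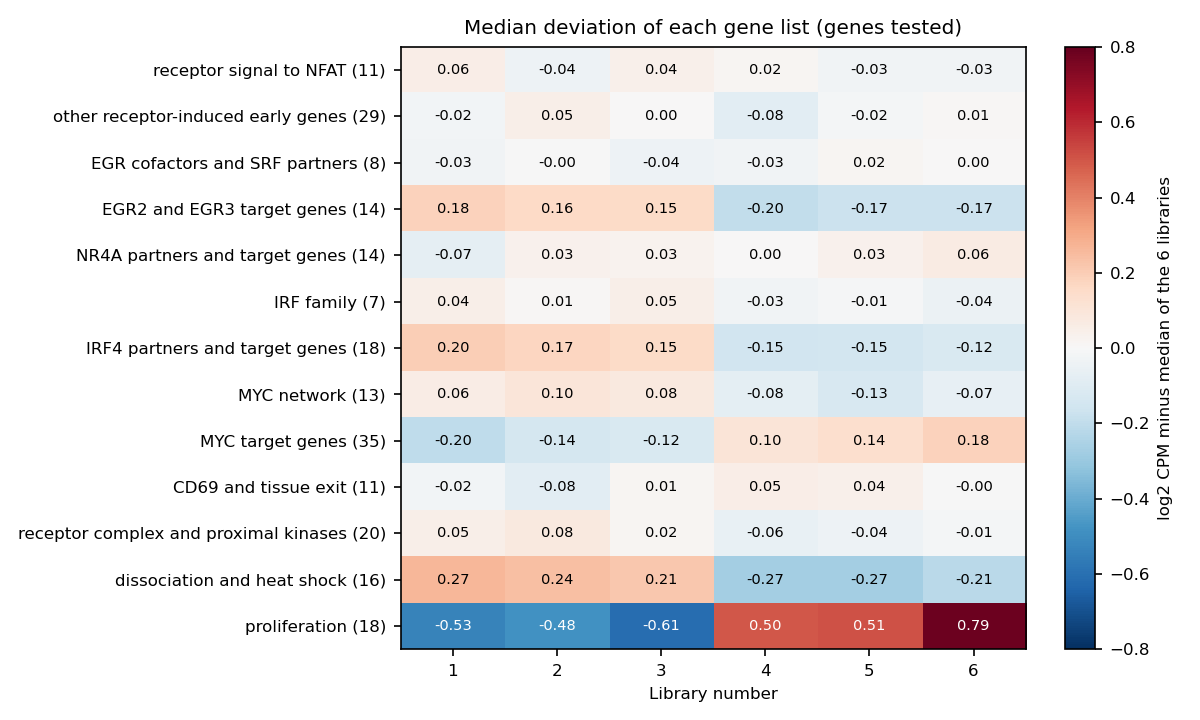
Median over the tested genes of each list (rows, number of genes in brackets) of the deviation of log2 CPM from each gene's median, in each library (columns), with red above and blue below. Proliferation genes run from -0.61 to 0.79, while the receptor complex and the NFAT branch stay within 0.1 of their medians.

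Of 14 tested NR4A partners and target genes, 5 ranged 1.5-fold or more, 3 of them at least 2-fold, with a median range of 1.37-fold. Nfkb1, the most abundant, stood at 972, 963, 917, 668.5, 700.4 and 739 CPM. Tox, a factor of exhausted T cells and the most variable, stood at 4.51, 3.67, 4.30, 9.84, 8.77 and 9.11 CPM, low in the same libraries as Nr4a3. Foxp3, also of that list, stood at 7.37, 7.66, 7.86, 11.9, 13.4 and 11.2 CPM, high in libraries 4, 5 and 6. Summed, the 8 regulatory T cell markers, of which Foxp3 is 1, went the other way, at 4367, 4294, 4246, 2805, 2846 and 3070 CPM. Il2ra and Ctla4, with means of 1938 and 1167 CPM, led this sum. The median deviation of the markers was 0.11, 0.12, 0.07, -0.14, -0.12 and -0.09 log2 units. Ctla4, an inhibitory receptor gene and the most variable of the markers, stood at 1526, 1559, 1548, 791, 771 and 809 CPM. Not all markers shared this order, as 2 genes named after their values were seen show. Nrp1 was low in libraries 1, 2 and 3, with 8.30 CPM in library 2 and 12.5 CPM in library 4. Ikzf2 ranged 1.13-fold. The median deviation of the NR4A list stayed between -0.07 and 0.06 log2 units. The gene lists share some genes, so their counts are not independent of each other.

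The closest pair among the 10 genes was Egr1 and Irf8, whose profiles differed by a root mean square of 0.045 log2 units over the 6 libraries, each profile centred on its own median. Nr4a1 and Cd69 followed at 0.073, and Irf4 and Myc at 0.10. The most distant pair was Nr4a2 and Egr3 at 1.09, followed by Nr4a2 and Nr4a3 at 0.88. The closest pair of 1 family was Irf4 and Irf8 at 0.156, while Egr2 and Egr3 were at 0.40 and Egr1 and Egr3 at 0.87. The measure is not scaled for range, so genes that range little come out close even where their orders differ. Irf4 and Irf8 were on the same side of their medians only in libraries 1 and 4, whereas Egr2 and Egr3 were so in every library.

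The same measure was taken against 8370 other genes that averaged at least 10 CPM for the 4 genes that ranged 1.5-fold or more. Closest to Nr4a3 were Hells, a chromatin remodeller gene, at 0.027 log2 units, and Chek1, a replication checkpoint kinase gene, at 0.028. Closest to Egr3 were P2rx7, the gene of an ATP-gated channel, at 0.095, and H2-Eb1, an MHC class II chain gene, at 0.10. Closest to Egr2 were Iah1 at 0.018 and Dglucy at 0.038. Closest to Nr4a2 were Hdac5, a histone deacetylase gene, at 0.057 and Eif2ak3, the gene of the stress kinase PERK, at 0.062. P2rx7 stood at 20.8, 23.7, 24.5, 68.6, 63.4 and 61.7 CPM, with its lowest and highest values in the same libraries as Egr3.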

How the data were processed

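The 6 libraries of mouse CD4+ T cells were made from TRIzol-extracted RNA with a VAHTS Universal V5 kit, per the labels. Tools in the submitters' processing notes are fastp, HISAT2, HTSeq, R 3.2.0, DESeq2 and the assembly GRCm39. Their order and settings, the annotation and the strand setting are not given there. The authors deposited raw read counts per gene and FPKM values per gene. The FPKM values equal the counts divided by library total and a gene length within a relative 1.32e-08, so they are a second scaling of the same reads.

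No library could be placed in a group, so no mean with an error and no test was made. The 10 genes, the lists and the words searched were chosen with earlier results of these data known. Counts were scaled with TMM in edgeR 4.0.16 (R 4.3.3) and analysed with scipy 1.17.1, pandas 2.3.3 and numpy 2.4.6 (Python 3.11.15) and plotted with matplotlib 3.10.9. Ranges were taken over genes averaging 1 CPM or more. Intervals are exact Poisson for levels and exact conditional binomial (Clopper-Pearson) for ratios, at 95%, and cover counting error only, since PCR reads without molecular identifiers are not independent molecules. The floor of 3 counts corresponds to 0.0791 to 0.0966 CPM, depending on the library. The procedure was tested on simulated counts. Named were all 10 genes, the most abundant and the most variable tested gene of each list, the 2 named genes closest to each of the 10 genes that ranged 1.5-fold or more, and Cd4, Cd3e, Cd8a, Foxp3 and the leading markers of other cell types; some genes that this rule names are not reported here. Alternatives were DESeq2 1.42.0 size factors, plain totals, FPKM with a pseudocount of 0.1, a prior count of 0.5, a minimum of 5 CPM, a minimum of 10 CPM (added after seeing the data), no minimum, and each library left out. Promoter windows are from RefSeq, GRCm38.p6, another assembly than the one of the counts.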

Additional observations from a re-analysis of the deposited data

How the results depend on the processing

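In each of the 13 alternatives, 4 of the 10 genes ranged 1.5-fold or more, 2 of them at least 2-fold. With all 6 libraries, each gene had the same highest and lowest library in all 7 alternatives. Those with another minimum CPM or none use the values of the main setting, so neither ranges nor extremes of the 10 genes could differ. FPKM and plain totals are scaled by the same library totals, so they are not separate checks. Of 130 fold ranges recomputed, 108 lay within the counting interval of the main ratio and 22 outside it. The 108 include all values from the settings that change only the minimum CPM, which could not lie outside. Leaving out a library that was neither highest nor lowest could change a range only through rescaling. With plain total counts, only Nr4a2 and Nr4a3 lay within the interval, and with FPKM only these and Egr3. Egr3 ranged between 2.84-fold, without library 1, and 3.36-fold, with plain total counts, and Nr4a3 between 2.004-fold and 2.22-fold in the same 2 settings. Egr1 ranged 1.20-fold with plain totals or FPKM. The background count depended on the filter by construction, with 450 genes at 2-fold and 1664 at 1.5-fold for a minimum of 5 CPM, 279 and 1127 for a minimum of 10 CPM, which was chosen after seeing the data, and 6870 and 11757 without a filter. Against TMM, plain totals shifted the median gene by between -0.06 and 0.06 log2 units. No paired analysis was possible because no library has a group. Depth limits Mycn, Mycl and the markers of other cell types, which rest on few reads.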

Other observations

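Genes of exit from tissue did not share 1 order, and the median deviation of the list stayed between -0.08 in library 2 and 0.05 in library 4. Klf2, the factor that maintains exit genes, stood at 11.9, 14.4, 13.4, 21.8, 22.02 and 19.7 CPM, and S1pr1, the exit receptor that CD69 holds inside the cell, at 29.8, 25.5, 24.2, 37.2, 33.0 and 36.4 CPM, both low in libraries 1, 2 and 3, as Cd69 was. S1pr2, a receptor of the same lipid, went the other way at 28.6, 26.6, 24.6, 18.6, 19.6 and 20.2 CPM. They were named after their values were seen, and the MAX partner gene Mxd1 was too, at 132, 139.6, 131, 62.4, 65.1 and 61.97 CPM. Mxd1 had the order of Mxi1, high in libraries 1, 2 and 3.

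For each of the 10 genes, the place of the widest step between libraries was recorded. Every gene has such a step, so its place alone does not show separate clusters. Sorted by log2 CPM, the widest step between neighbouring libraries lay between libraries 1, 2 and 3 and libraries 4, 5 and 6 in 8 of the 10 genes. It lay there in 34.8% of the 11516 genes tested, in 39.5% of the 8371 genes of at least 10 CPM and in 49.8% of the 3174 genes that ranged 1.5-fold or more. Libraries 1, 2 and 3 were on the low side for 5 genes, Nr4a1, Nr4a3, Egr2, Egr3 and Cd69, and on the high side for 3 genes, Nr4a2, Egr1 and Irf8. In Nr4a3, with 22.8, 23.6, 23.2, 45.6, 46.3 and 47.0 CPM, the step was 0.95 log2 units, or 91.3% of the range. In Egr3, with 23.9, 25.8, 30.9, 73.9, 70.6 and 66.6 CPM, it was 1.11 log2 units, or 68.1% of the range. Among the 8 genes it was smallest in Irf8, Nr4a1 and Cd69, at 0.144, 0.165 and 0.173 log2 units. These steps were 48.0%, 44.2% and 39.5% of the range of each gene. In Irf4, with 999, 895, 930, 906, 936 and 1050.2 CPM, the widest step lay elsewhere and was 0.09 log2 units. In Myc, with 127.6, 126.9, 125.6, 136.7, 147 and 156 CPM, it lay between library 4 and library 5. For Myc and Irf8, whether the step set libraries 1, 2 and 3 apart depended on the scaling. With plain total counts or FPKM, the widest step of Myc lay between libraries 1, 2 and 3 and libraries 4, 5 and 6, and that of Irf8, 0.061 log2 units, lay between libraries 4 and 5 and the other libraries, so the count was again 8 of 10. With DESeq2 size factors or a prior count of 0.5, every gene's widest step split the libraries as above. The labels do not say what separates the libraries, so no comparison was made.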
